A study of Homo sapiens with 4 samples.

Results

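The genes examined here drive cells from G2 through mitosis: the mitotic cyclins and their kinase, the spindle checkpoint, the anaphase-promoting complex (APC/C) and its targets, the kinetochore, the spindle, the chromosomal passenger complex, the cytokinesis machinery and condensin. They were taken by gene symbol from a list that leaves out the KIF-named kinesins. The rule uses no measured value, but the list was drawn up with earlier results of these data known, so its shares against all genes are a description. All 56 were found among the 23228 gene symbols in the files, and all 56 had enough counts to be tested, with 12706 genes tested in total. The RNA came from ES2, an established line of human ovarian cancer cells grown in RPMI medium with serum, after 12 h with vehicle (0.1% DMSO) or with 10 nM EC359, an inhibitor of the leukemia inhibitory factor receptor LIFR. Each treatment had 2 libraries, made from 1 cell line at 1 dose and 1 time point. The study's text calls the replicates biologically independent samples, and the labels do not say whether they were separate cultures, so p-values measure the spread between these libraries. The comparison asks which transcripts differ after LIFR inhibition.

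Entry into mitosis is driven by cyclin B bound to the kinase CDK1, which the kinases WEE1 and MYT1 hold inactive until CDC25 phosphatases remove their phosphates. In mitosis the spindle checkpoint keeps CDC20 from activating the APC/C until every kinetochore is attached, and the APC/C then marks securin and cyclin B for destruction, which frees separase to cut cohesin and lets the cell divide. Transcripts of most of these genes are low in G1 and high in G2 and mitosis, through promoters read by the DREAM and MuvB complexes, B-MYB, FOXM1 and NF-Y. In RNA from whole cultures, a smaller share of cells in G2 or mitosis and less mRNA per cell cannot be told apart.

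Most of the G2/M genes lay slightly lower with EC359, and 5 of the 56 passed the test at an adjusted p under 0.01. Cyclin B1 (CCNB1), CDC20, securin (PTTG1) and the spindle pole protein ASPM fell, while CDK1, the kinase that cyclin B1 activates, rose. The changes were small. CCNB1 fell by 21.8%, CDC20 by 19.8%, PTTG1 by 19.5% and ASPM by 15.9%, and CDK1 rose by 15.1%. None of the 56 members changed by 0.5 or more on the log2 scale. The 4 members that fell are 7.14% of the list, against 0.795% of all tested genes called lower, and the 1 that rose is 1.79%, against 0.299% called higher. In either direction 1.09% of tested genes were called, which is 139 genes. Adjusted p-values throughout are those of the quasi-likelihood test in edgeR, adjusted over all tested genes by the Benjamini-Hochberg method, and SE is the standard error of the log2 fold change.

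CCNB1 (GRCh37 chr5:68462962-68474072) encodes the cyclin whose accumulation sets the timing of mitosis. It had 14568 and 14147 normalized counts in the vehicle libraries and 11264 and 11192 in the EC359 libraries, where normalized counts are read counts scaled to the mean effective library size. The EC359 libraries were close together and both lay below both vehicle libraries. The means were 14357 ± 297 (SD) normalized counts over the vehicle libraries and 11228 ± 50.6 (SD) over the EC359 libraries, n = 2 each (log2 fold change -0.35 with an SE of 0.031, adjusted p = 0.000624).

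CDC20 (GRCh37 chr1:43824652-43828874) is the activator of the APC/C in mitosis and the target of the spindle checkpoint. It had 10009.6 and 10473 normalized counts in the vehicle libraries and 8151 and 8283 in the EC359 libraries, with no overlap between treatments. CDC20 averaged 10241 ± 328 (SD) normalized counts over the vehicle libraries and 8217 ± 93.5 (SD) over the EC359 libraries, n = 2 each (log2 fold change -0.32 with an SE of 0.035, adjusted p = 0.00214). PTTG1 (GRCh37 chr5:159848862-159855746), or securin, holds separase inactive until anaphase and is itself destroyed through CDC20. The libraries held 3288 and 3308 normalized counts in the vehicle libraries and 2673 and 2634 in the EC359 libraries. Replicates differed by far less than the treatments did, with 3298 ± 14.5 (SD) normalized counts over the vehicle libraries and 2654 ± 27.4 (SD) over the EC359 libraries, n = 2 each (log2 fold change -0.31 with an SE of 0.04, adjusted p = 0.00332).

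ASPM (GRCh37 chr1:197053251-197115824) focuses microtubules at the spindle poles. Its normalized counts were 9932 and 9602 with vehicle and 8485 and 7941 with EC359. The EC359 replicates were further apart than in the other called genes, though both were below vehicle, at 9767 ± 233 (SD) normalized counts over the vehicle libraries and 8213 ± 385 (SD) over the EC359 libraries, n = 2 each (log2 fold change -0.25 with an SE of 0.039, adjusted p = 0.00781). CDK1 (GRCh37 chr10:62538089-62554610) was the only member called higher. It had 12807 and 12575 normalized counts in the vehicle libraries and 14645 and 14579 in the EC359 libraries, again without overlap. CDK1 averaged 12691 ± 164 (SD) normalized counts over the vehicle libraries and 14612 ± 46.7 (SD) over the EC359 libraries, n = 2 each (log2 fold change 0.20 with an SE of 0.03, adjusted p = 0.00638). None of the 5 called genes has an exon that overlaps an exon of another gene in the files.

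When either EC359 library was left out, the adjusted p of the 5 genes ranged from 0.237 to 0.348, with the lone EC359 library assumed to vary like the vehicle libraries. Calls over all tested genes then fell from 139 to 0 without EC359 replicate 1 and to 2 without EC359 replicate 2, while the estimates moved little. The log2 fold change of CCNB1 was -0.36 and -0.35 without these libraries in turn, that of CDC20 -0.31 and -0.33, and that of CDK1 0.20 and 0.21. Without vehicle replicate 1, 9 members and 390 of all tested genes were called, and without vehicle replicate 2, 19 members and 539 genes.

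**Figure D1:**
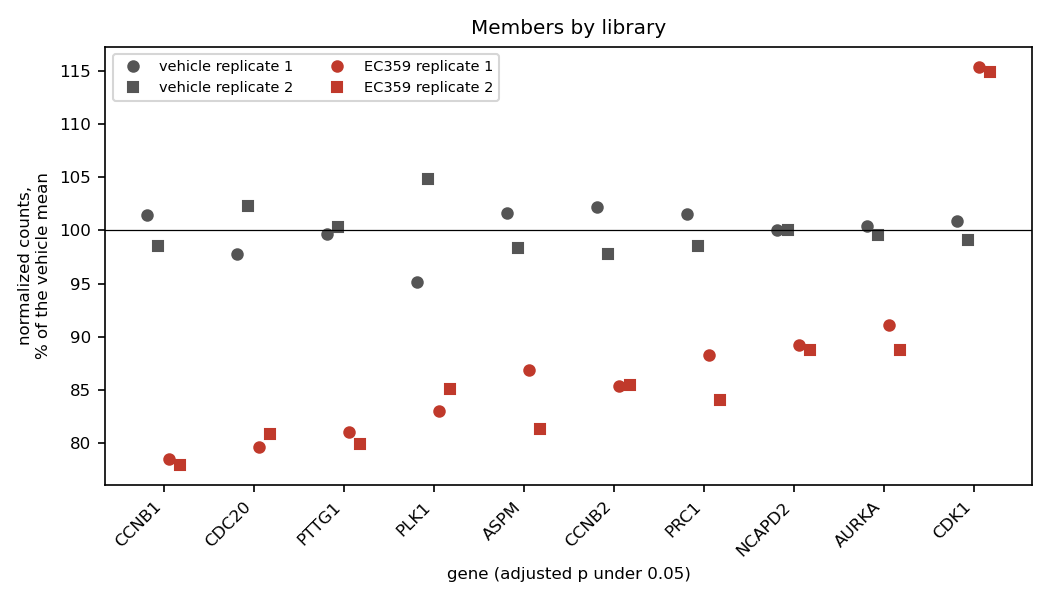
Normalized counts of the 10 members with an adjusted p under 0.05, each library as a percentage of that gene's vehicle mean (y axis). Grey marks are vehicle and red marks EC359, with circles for replicate 1 and squares for replicate 2. The 9 lower genes lie below both vehicle libraries in both EC359 libraries, and CDK1 lies above them.

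The promoters of the 5 called genes are shown so that the short motifs known from promoters of G2/M genes can be looked for in each of them. Each window runs from 250 bases before to 50 bases after a RefSeq transcript start on GRCh38.p14, printed in the direction of the gene. Capitals mark matches to the cell cycle genes homology region (CHR, TTTGAA or TTCGAA), the CCAAT box (CCAAT) and the E2F site (TTTNNCGC), each searched on both strands, so that TTCAAA and ATTGG are matches on the other strand. CDK1 and PTTG1 each had 2 windows. For CDK1 the one with more matches is shown, and for PTTG1, whose windows hold equally many, the one listed ahead of the other.
CCNB1 promoter, chr5:69166900-69167199, plus strand: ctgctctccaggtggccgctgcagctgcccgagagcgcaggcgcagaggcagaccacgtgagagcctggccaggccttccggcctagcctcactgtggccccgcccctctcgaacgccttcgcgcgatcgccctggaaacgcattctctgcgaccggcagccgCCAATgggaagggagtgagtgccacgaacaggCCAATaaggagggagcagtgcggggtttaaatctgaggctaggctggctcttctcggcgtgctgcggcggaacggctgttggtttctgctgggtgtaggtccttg
CDC20 promoter, chr1:43358731-43359030, plus strand: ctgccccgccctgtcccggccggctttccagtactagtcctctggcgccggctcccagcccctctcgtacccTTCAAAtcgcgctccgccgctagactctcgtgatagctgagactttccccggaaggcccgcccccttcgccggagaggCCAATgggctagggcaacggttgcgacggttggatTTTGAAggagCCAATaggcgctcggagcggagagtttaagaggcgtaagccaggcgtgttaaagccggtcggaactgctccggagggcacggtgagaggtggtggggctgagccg
PTTG1 promoter, chr5:160421605-160421904, plus strand: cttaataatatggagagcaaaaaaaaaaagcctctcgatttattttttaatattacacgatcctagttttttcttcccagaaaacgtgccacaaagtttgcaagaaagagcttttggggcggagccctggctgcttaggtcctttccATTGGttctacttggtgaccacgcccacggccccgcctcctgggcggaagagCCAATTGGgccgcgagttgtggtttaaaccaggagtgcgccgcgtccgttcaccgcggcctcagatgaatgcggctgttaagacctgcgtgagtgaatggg
ASPM promoter, chr1:197146620-197146919, minus strand: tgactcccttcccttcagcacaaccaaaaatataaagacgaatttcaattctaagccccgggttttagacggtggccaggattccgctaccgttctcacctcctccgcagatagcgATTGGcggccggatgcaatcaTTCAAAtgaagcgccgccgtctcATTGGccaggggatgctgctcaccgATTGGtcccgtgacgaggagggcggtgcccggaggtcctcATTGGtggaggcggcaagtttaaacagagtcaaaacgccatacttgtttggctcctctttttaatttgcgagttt
CDK1 promoter, chr10:60778228-60778527, plus strand: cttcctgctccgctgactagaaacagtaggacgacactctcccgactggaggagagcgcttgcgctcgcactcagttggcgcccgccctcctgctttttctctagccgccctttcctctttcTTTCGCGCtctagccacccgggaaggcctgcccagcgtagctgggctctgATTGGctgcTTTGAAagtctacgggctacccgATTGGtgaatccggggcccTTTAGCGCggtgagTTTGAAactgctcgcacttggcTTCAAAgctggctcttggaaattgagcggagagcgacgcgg
CCNB1 held 2 CCAAT boxes, starting 87 and 55 bases before the transcript start, and no CHR match with these letters. CDC20 held 2 CHR matches and 2 CCAAT boxes, and its 2 nearest matches start 65 and 55 bases before the transcript start. In PTTG1 there were 3 CCAAT boxes and no CHR match, and its 2 nearest boxes overlap on opposite strands. ASPM held 4 CCAAT boxes and 1 CHR match. The CDK1 window differed in holding 2 E2F sites, beside 3 CHR matches and 2 CCAAT boxes. These matches are letters in a window and were not measured as binding.

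Over all 56 members, the median log2 fold change was -0.074, against 0.0029 over all tested genes, with a range from -0.35 to 0.34. Of the members, 41 lay lower with EC359 (73.2%, against 49% of all tested genes) and 15 higher (26.8%, against 51%). At an adjusted p under 0.05, 9 members were lower (16.1% of the list, against 2.64% of all tested genes) and 1 was higher (1.79%, against 1.68%). At an unadjusted p under 0.05, 23 members were lower (41.1%, against 11%) and 7 higher (12.5%, against 10.7%). Both EC359 libraries lay below both vehicle libraries in 32 members (57.1%, against 25.4%) and above them in 10 (17.9%, against 26.1%), and the libraries overlapped in 14. The median absolute log2 fold change was 0.11 in the members and 0.091 in all tested genes. The median standard error of a member was 0.039. The members are abundant transcripts, with 53 of 56 above the median expression of tested genes and a median expression percentile of 91.5. The shares over all tested genes were not matched for expression. Together they took 1.57% and 1.54% of the counts in the vehicle libraries and 1.53% and 1.51% in the EC359 libraries.

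**Figure D2:**
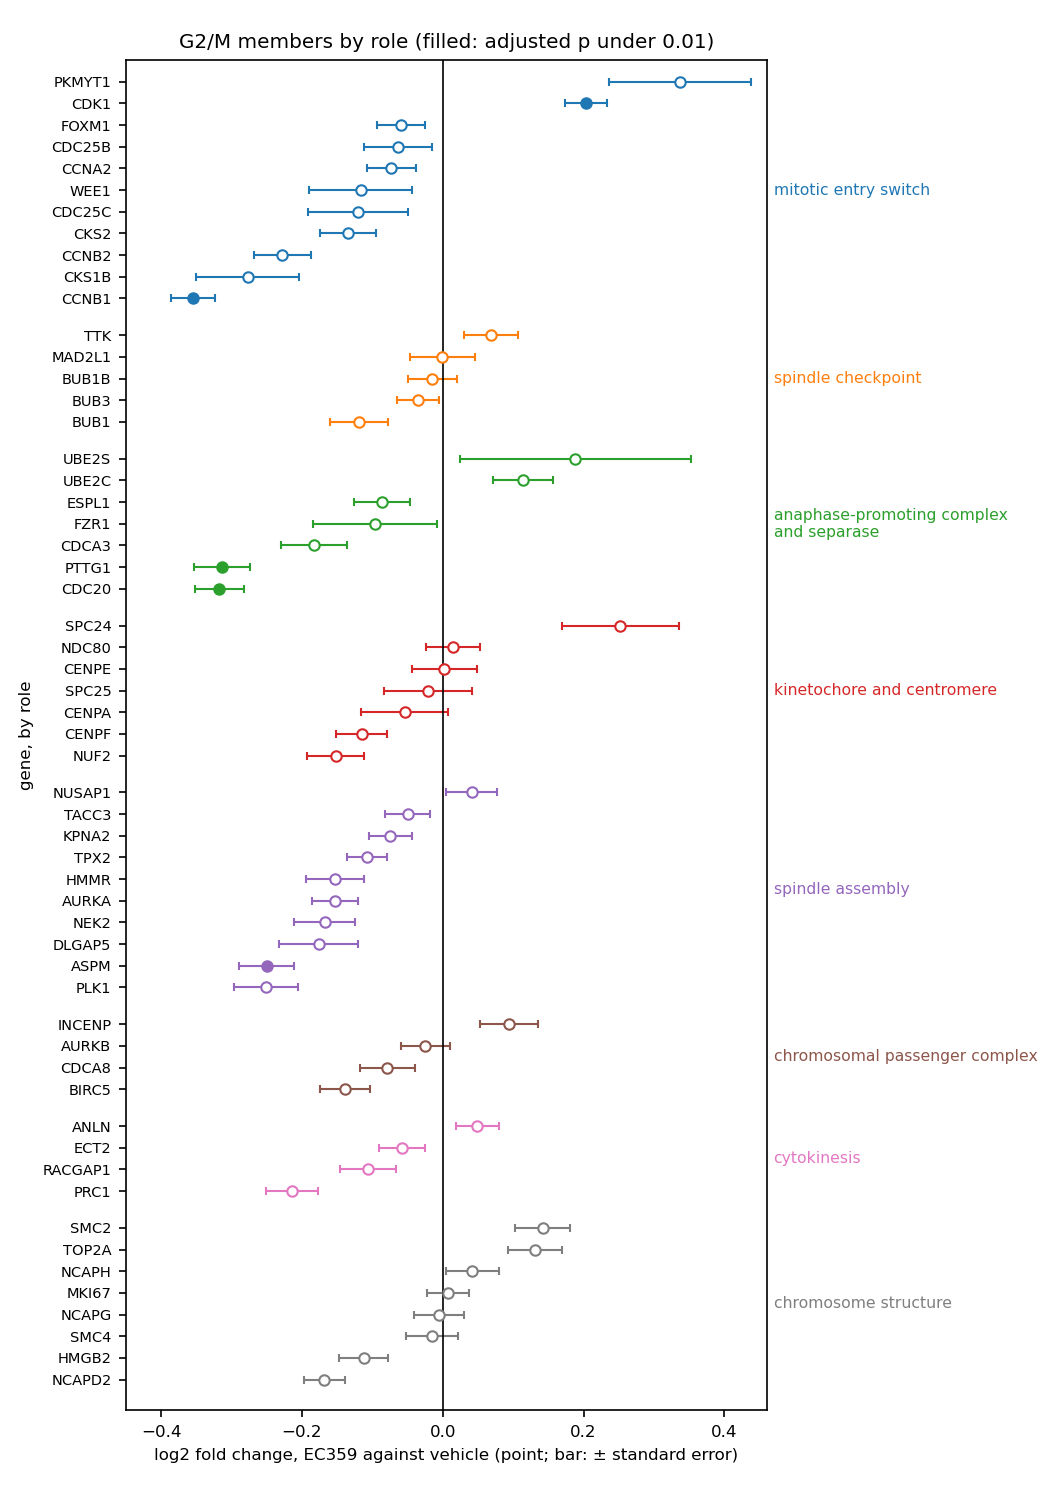
Log2 fold change of EC359 against vehicle (x axis) for the 56 members, grouped by role. Points are estimates from edgeR's quasi-likelihood fit over 2 libraries per treatment, bars are ± standard error, and filled points have an adjusted p under 0.01. The 10 spindle assembly genes lie mostly left of 0, and the 5 spindle checkpoint genes lie close to it.

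The 11 genes of the mitotic entry switch had a median log2 change of -0.12, and 9 of them lay lower (81.8%, against 49% of all tested genes). CCNB1 fell and CDK1 rose, as above. CCNB2 (GRCh37 chr15:59397325-59417244) encodes the other mitotic B-type cyclin. It had 3619 and 3463 normalized counts in the vehicle libraries and 3022 and 3025 in the EC359 libraries, with no overlap and almost equal EC359 libraries (log2 fold change -0.23 with an SE of 0.041, adjusted p = 0.0139). CCNB2 thus passed 0.05 but not 0.01. CCNA2, or cyclin A2, which acts in S phase and G2, had 4997 and 4993 normalized counts in the vehicle libraries and 4800.0 and 4697 in the EC359 libraries, and its log2 fold change was -0.073 (adjusted p = 0.26).

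CKS1B and CKS2 encode small proteins that bind CDK1 and help it dock on its substrates. CKS1B (GRCh37 chr1:154947129-154951727) had 1168 and 1019 normalized counts in the vehicle libraries and 885 and 919.8 in the EC359 libraries (log2 fold change -0.28 with an SE of 0.074, adjusted p = 0.0627). CKS2 (GRCh37 chr9:91926110-91931618) had 4975 and 4685 normalized counts in the vehicle libraries and 4388 and 4414 in the EC359 libraries (log2 fold change -0.13 with an SE of 0.04, adjusted p = 0.0828). Both were lower in both EC359 libraries without passing 0.05, and both depended on the vehicle libraries. Without vehicle replicate 1 the log2 fold change was -0.17 for CKS1B and -0.089 for CKS2, and without vehicle replicate 2 it was -0.38 (adjusted p = 0.00144) and -0.18 (adjusted p = 0.00755). With the length trend removed CKS2 was at -0.051. Of the 50-base windows of the CKS1B transcript, 31.8% also occur in transcripts from another place in the genome, so reads of this gene are less certain.

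CDC25B and CDC25C encode phosphatases that switch CDK1 on. CDC25B (GRCh37 chr20:3767419-3786768) had 3072 and 3363 normalized counts in the vehicle libraries and 3058 and 3099 in the EC359 libraries, which overlap (log2 fold change -0.064 with an SE of 0.048, adjusted p = 0.486). CDC25C (GRCh37 chr5:137620958-137674044) had 855 and 786 normalized counts in the vehicle libraries and 731 and 779 in the EC359 libraries (log2 fold change -0.12 with an SE of 0.071, adjusted p = 0.362). Neither passed the test. WEE1 and PKMYT1 encode the kinases that hold CDK1 inactive. WEE1 (GRCh37 chr11:9595217-9615004) had 1317 and 1152 normalized counts in the vehicle libraries and 1178 and 1098 in the EC359 libraries, which overlap (log2 fold change -0.12 with an SE of 0.073, adjusted p = 0.39). PKMYT1 (GRCh37 chr16:3018025-3030480), the gene of MYT1, had the highest log2 fold change among the members. Its normalized counts were 738 and 939 with vehicle and 1003 and 1117 with EC359, and the vehicle libraries were far apart (log2 fold change 0.34 with an SE of 0.10, adjusted p = 0.0852). Its log2 fold change was 0.17 without vehicle replicate 1 (adjusted p = 0.206) and 0.52 without vehicle replicate 2 (adjusted p = 0.00022). PKMYT1 exons share 1228 bases with PAQR4 and also overlap KREMEN2, both on the opposite strand. The strand setting of the read counting is not given in the sources used here. FOXM1, a transcription factor of G2/M genes, had 7203 and 7108 normalized counts in the vehicle libraries and 6764 and 6969 in the EC359 libraries (log2 fold change -0.06, adjusted p = 0.341).

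The 5 genes of the spindle checkpoint had a median log2 change of -0.015, and their lowest adjusted p was 0.129, for BUB1. At an unadjusted p under 0.05 there was 1 lower (20%, against 11% of all tested genes) and 0 higher (0%, against 10.7%). DESeq2, edgeR's exact test and limma voom each called 0 at an adjusted p under 0.01. BUB1 passed with a replicate block (log2 fold change -0.12, adjusted p = 0.000772) and with the GC trend removed (-0.13, adjusted p = 0.00349). BUB1 (GRCh37 chr2:111395105-111435640), a kinase that recruits checkpoint proteins to kinetochores, had 7869 and 7632 normalized counts in the vehicle libraries and 7406 and 6867 in the EC359 libraries (log2 fold change -0.12 with an SE of 0.041, adjusted p = 0.129). BUB1B (GRCh37 chr15:40453224-40513324), whose product BUBR1 binds CDC20 in the checkpoint complex, had 5738 and 5822 normalized counts in the vehicle libraries and 5798 and 5645 in the EC359 libraries (log2 fold change -0.015 with an SE of 0.035, adjusted p = 0.852). The BUB1B libraries overlapped, and its sign turned under another scaling. TTK (GRCh37 chr6:80713604-80752244), the kinase MPS1 that starts checkpoint signalling, had 5227 and 4953 normalized counts in the vehicle libraries and 5363 and 5312 in the EC359 libraries (log2 fold change 0.069 with an SE of 0.038, adjusted p = 0.329). BUB3 (GRCh37 chr10:124913918-124929983), a partner of BUB1 and BUBR1, had 17927 and 17524 normalized counts in the vehicle libraries and 17395 and 17192 in the EC359 libraries (log2 fold change -0.036 with an SE of 0.03, adjusted p = 0.535). MAD2L1, whose product MAD2 holds CDC20, had 3171 and 3066 normalized counts in the vehicle libraries and 3219 and 3014 in the EC359 libraries (log2 fold change -0.00035).

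Among the 7 genes of the APC/C pathway and separase, CDC20 and PTTG1 fell and the median log2 fold change was -0.097. CDCA3 (GRCh37 chr12:6953957-6960456), an adaptor that sends WEE1 for destruction, had 2021 and 2066 normalized counts in the vehicle libraries and 1785 and 1814 in the EC359 libraries (log2 fold change -0.18 with an SE of 0.047, adjusted p = 0.0559). ESPL1, or separase, had 4193 and 4435 normalized counts in the vehicle libraries and 4097 and 4032 in the EC359 libraries (log2 fold change -0.086, adjusted p = 0.247). FZR1, the APC/C activator that takes over from CDC20 in late mitosis and G1, had 1403 and 1655 normalized counts in the vehicle libraries and 1321 and 1541 in the EC359 libraries, which overlap (log2 fold change -0.097, adjusted p = 0.57). UBE2C, a ubiquitin enzyme that works with the APC/C, had 6639 and 7243 normalized counts in the vehicle libraries and 7521 and 7503 in the EC359 libraries (log2 fold change 0.11, adjusted p = 0.153), and its log2 fold change was 0.053 without vehicle replicate 1 and 0.17 without vehicle replicate 2 (adjusted p = 0.479 and 0.00624). UBE2S, which extends the chains, had 461 and 727 normalized counts in the vehicle libraries and 618 and 737 in the EC359 libraries, with vehicle libraries far apart and an overlap between treatments (log2 fold change 0.19, adjusted p = 0.549). Its sign depended on 1 library, with a log2 fold change of -0.10 without vehicle replicate 1 and 0.55 without vehicle replicate 2 (adjusted p = 0.596 and 0.00111). In UBE2S, 17.4% of transcript windows also occur at another place in the genome.

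The 7 kinetochore and centromere genes had a median log2 change of -0.021 and a lowest adjusted p of 0.0602. NUF2 (GRCh37 chr1:163236366-163325554), a subunit of the NDC80 complex that holds microtubules, had 5944 and 5723 normalized counts in the vehicle libraries and 5395 and 5101 in the EC359 libraries (log2 fold change -0.15 with an SE of 0.04, adjusted p = 0.0602). CENPF (GRCh37 chr1:214776528-214837917), a large protein of the outer kinetochore, had 12832 and 12209.8 normalized counts in the vehicle libraries and 11779 and 11339 in the EC359 libraries (log2 fold change -0.12 with an SE of 0.036, adjusted p = 0.0976). Both lay lower without overlap, and these 2 are 28.6% of the group, against 25.4% of all tested genes. SPC24 (GRCh37 chr19:11242196-11266483), also a subunit of the NDC80 complex, lay the other way, with 398 and 434 normalized counts in the vehicle libraries and 509 and 482 in the EC359 libraries (log2 fold change 0.25 with an SE of 0.083, adjusted p = 0.113). It was the member with the fewest normalized counts in vehicle. NDC80 itself, with 5483 and 5358 normalized counts in the vehicle libraries and 5615 and 5334 in the EC359 libraries, overlapped between treatments (log2 fold change 0.015). The libraries also overlapped for SPC25 (-0.021), for CENPA, the centromeric histone H3 (-0.054), and for CENPE, the kinetochore motor (0.0022), each given as a log2 fold change. For this group, 2 genes were lower (28.6%, against 11% of all tested genes) and 1 higher (14.3%, against 10.7%) at an unadjusted p under 0.05.

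Of the 10 spindle assembly genes, 9 were lower in both EC359 libraries, which is 90% against 25.4% of all tested genes. At an unadjusted p under 0.05, 8 were lower (80%, against 11%), and at an adjusted p under 0.05, 3 were (30%, against 2.64%). The median log2 fold change was -0.15, and ASPM was the 1 gene called. PLK1 (GRCh37 chr16:23688977-23701688), a kinase of mitotic entry, centrosome maturation and spindle assembly, had 7363 and 8119 normalized counts in the vehicle libraries and 6426 and 6584 in the EC359 libraries, without overlap but with vehicle libraries apart (log2 fold change -0.25 with an SE of 0.045, adjusted p = 0.0146). AURKA (GRCh37 chr20:54944445-54967393), the Aurora kinase of centrosomes and spindle poles, had 7794 and 7730.0 normalized counts in the vehicle libraries and 7073 and 6887 in the EC359 libraries (log2 fold change -0.15 with an SE of 0.033, adjusted p = 0.0301). Replicates of AURKA differed by less than the treatments. TPX2, which targets Aurora A to the spindle, had 20199 and 19954 normalized counts in the vehicle libraries and 18638 and 18633 in the EC359 libraries (log2 fold change -0.11, adjusted p = 0.0649). NEK2, a kinase of centrosome separation, had 2519 and 2575 normalized counts in the vehicle libraries and 2269.5 and 2264 in the EC359 libraries (log2 fold change -0.17, adjusted p = 0.0563). The microtubule-binding proteins HMMR and DLGAP5 had log2 fold changes of -0.15 (adjusted p = 0.0627) and -0.18 (adjusted p = 0.103). KPNA2, an importin that holds spindle assembly factors, was at -0.074 and TACC3, a spindle microtubule protein, at -0.05 on this scale. NUSAP1, which bundles spindle microtubules, was the only one of the group with overlapping libraries, at 7119 and 6822 normalized counts with vehicle and 7266 and 7075 with EC359 (log2 fold change 0.041).

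The chromosomal passenger complex corrects wrong attachments and guides cytokinesis. Its 4 genes had a median log2 change of -0.052 and a lowest adjusted p of 0.0563. BIRC5 (GRCh37 chr17:76210267-76221717), or survivin, had 5212 and 5379 normalized counts in the vehicle libraries and 4811 and 4811 in the EC359 libraries (log2 fold change -0.14 with an SE of 0.036, adjusted p = 0.0563). INCENP (GRCh37 chr11:61891470-61920641), the scaffold of the complex, lay the other way, with 3789 and 3873 normalized counts in the vehicle libraries and 3976 and 4202 in the EC359 libraries (log2 fold change 0.094 with an SE of 0.041, adjusted p = 0.22). AURKB (GRCh37 chr17:8108051-8113918), the kinase of the complex, had 5913 and 5931 normalized counts in the vehicle libraries and 5737 and 5908 in the EC359 libraries (log2 fold change -0.025 with an SE of 0.035, adjusted p = 0.731), and CDCA8 (GRCh37 chr1:38158153-38175391), or borealin, had 4611 and 4656 normalized counts in the vehicle libraries and 4500.2 and 4273 in the EC359 libraries (log2 fold change -0.079 with an SE of 0.039, adjusted p = 0.272). The difference in AURKB was smaller than its standard error, and its sign turned when a trend with GC content or length was removed.

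The 4 cytokinesis genes had a median of -0.082 on the log2 scale. PRC1 (GRCh37 chr15:91509270-91538859), which bundles the microtubules of the central spindle, had 8076 and 7836 normalized counts in the vehicle libraries and 7023 and 6686 in the EC359 libraries (log2 fold change -0.21 with an SE of 0.037, adjusted p = 0.012). It passed 0.05 but not 0.01. RACGAP1 (GRCh37 chr12:50370706-50426919) of the centralspindlin complex had 6999.8 and 6765 normalized counts in the vehicle libraries and 6604 and 6182 in the EC359 libraries (log2 fold change -0.11 with an SE of 0.04, adjusted p = 0.162). ECT2 (GRCh37 chr3:172468472-172539264), the exchange factor that activates RHOA at the cleavage furrow, had 9260.5 and 8985 normalized counts in the vehicle libraries and 8781 and 8748 in the EC359 libraries (log2 fold change -0.058 with an SE of 0.033, adjusted p = 0.338). ANLN, or anillin, a scaffold of the contractile ring and the member with the most normalized counts in vehicle, had 33259.6 and 31914 normalized counts in the vehicle libraries and 33732 and 33711 in the EC359 libraries (log2 fold change 0.049, adjusted p = 0.383).

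The 8 chromosome structure genes were divided, with 4 lower and 4 higher and a median log2 fold change of 0.00094. NCAPD2 (GRCh37 chr12:6602522-6641121), a subunit of condensin I, had 14369 and 14368 normalized counts in the vehicle libraries and 12819 and 12758 in the EC359 libraries (log2 fold change -0.17 with an SE of 0.03, adjusted p = 0.0135). Its replicates were nearly equal within each treatment. The other condensin genes lay closer to 0 or higher. SMC2 (GRCh37 chr9:106856541-106903700), a core subunit, had 5059 and 4982 normalized counts in the vehicle libraries and 5692 and 5385 in the EC359 libraries (log2 fold change 0.14 with an SE of 0.039, adjusted p = 0.0676). SMC4 (GRCh37 chr3:160117062-160152742), its partner, had 20230.3 and 18873 normalized counts in the vehicle libraries and 19491 and 19197 in the EC359 libraries, which overlap (log2 fold change -0.015 with an SE of 0.036, adjusted p = 0.852), and its sign turned under another scaling. The condensin I subunits NCAPG and NCAPH had log2 fold changes of -0.0058 and 0.042. TOP2A (GRCh37 chr17:38544777-38574148), the topoisomerase that untangles sister DNA, had 33018 and 30729.8 normalized counts in the vehicle libraries and 35639.5 and 34176 in the EC359 libraries (log2 fold change 0.13 with an SE of 0.038, adjusted p = 0.0789), higher in both EC359 libraries without passing 0.05. HMGB2, a chromatin protein, was at -0.11 on the log2 scale (adjusted p = 0.0964). MKI67, the gene of the proliferation marker Ki-67, had 17182 and 17016 normalized counts in the vehicle libraries and 17413 and 16966 in the EC359 libraries, and these overlap (log2 fold change 0.0077, adjusted p = 0.919).

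Ratios of 2 members within a library need no scaling between libraries. For 22 pairs of partners or paralogs, chosen after their values had been seen, the ratio of read counts is given as a description. In both EC359 libraries, 18 ratios lay below both vehicle libraries and 4 above them. Swapping the 2 genes of a pair turns its direction, and many pairs set a lower gene over a flat or rising one. The split of 18 and 4 is therefore no result about the members, and ratios of other gene pairs were not computed. The 4 higher were PKMYT1 to WEE1 (log2 change 0.46), SPC24 to SPC25 (0.27), SMC2 to SMC4 (0.16) and TOP2A to MKI67 (0.12). The ratio of CCNB1 to CDK1 counts was 1.137 and 1.125 with vehicle and 0.7691 and 0.7677 with EC359, so that CCNB1 reads outnumbered CDK1 reads with vehicle and were fewer with EC359. The ratio of CCNB2 to CDK1 was 0.2826 and 0.2754 with vehicle and 0.2064 and 0.2075 with EC359. For CCNA2 to CDK1 it was 0.3902 and 0.397 with vehicle and 0.3278 and 0.3222 with EC359. All 3 cyclin ratios lay lower with EC359 in both libraries, but they share CDK1, which rose, as the denominator. CCNA2 itself was at -0.073 on the log2 scale and CDK1 at 0.20. CDC20 set against BUB1B, a checkpoint gene whose libraries overlapped, gave 1.744 and 1.799 with vehicle and 1.406 and 1.467 with EC359. PTTG1 set against ESPL1, securin against separase, gave 0.784 and 0.7459 with vehicle and 0.6524 and 0.6533 with EC359. Within the NDC80 complex, NUF2 to NDC80 was 1.084 and 1.068 with vehicle and 0.9608 and 0.9564 with EC359. With 2 libraries against 2, the smallest p that an exact two-sided permutation test can give is 0.333, so none of these ratios was tested.

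**Figure D3:**
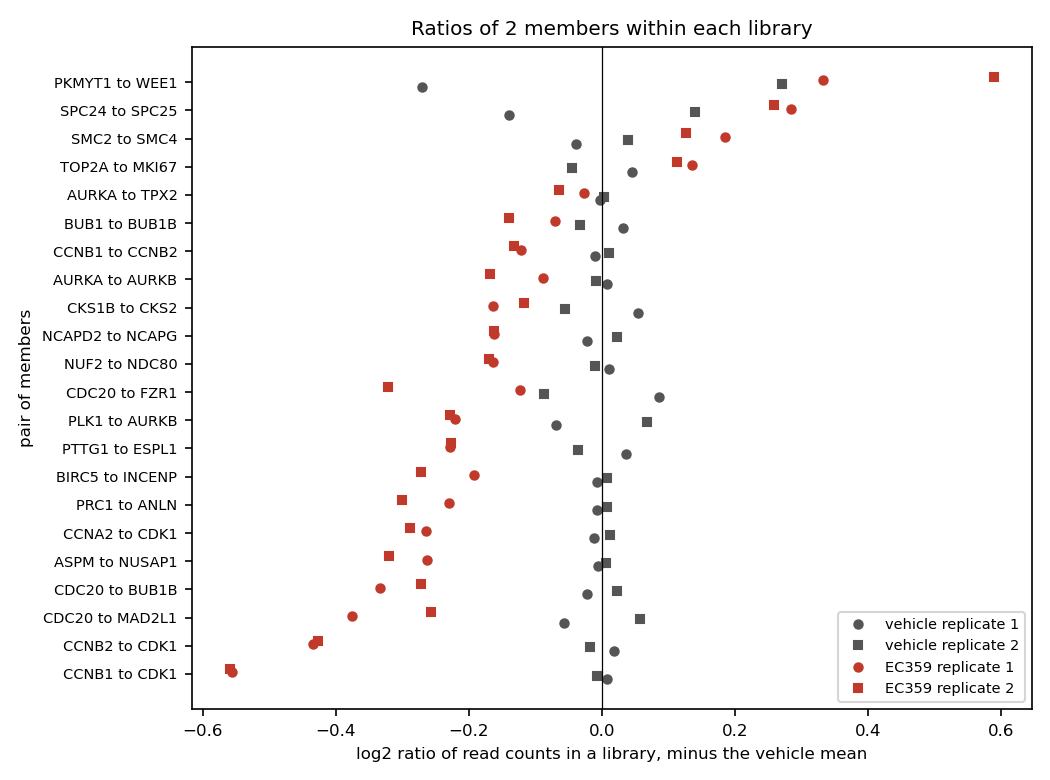
Log2 ratio of the read counts of 2 members in the same library, minus the mean of the vehicle libraries (x axis), for 22 pairs (y axis). Grey marks are vehicle and red marks EC359, with circles for replicate 1 and squares for replicate 2. CCNB1 to CDK1 lies furthest to the left, with a log2 change of -0.56.

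Levels between genes were compared per kb of the annotated transcript. On this scale the vehicle means of the members ranged from 182 normalized counts per kb for SPC24 to 8933 for UBE2C, with a median of 2036. TACC3 followed UBE2C at 8843, and CKS2 was at 7840.3. CCNB1 and CDK1 were close with vehicle, at 7076 and 6718 per kb. In the EC359 libraries CCNB1 was at 5551 and 5516 per kb and CDK1 at 7753 and 7718. The kinases and activators WEE1 (344) and FZR1 (295) stood near the bottom of the order with UBE2S (232), all in vehicle normalized counts per kb.

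Across the 45 members with a RefSeq promoter window, 58 windows were searched, since some genes had several that overlap. A CHR match was in 65.5% of these windows, against 16.4% of all 35116 windows in the table. The CCAAT box was in 69% of the members' windows, against 34.6% of all windows, and both motifs were in 50%, against 6.38%. The E2F site was in 10.3%, against 6.89%. Of 52 CHR matches in the members' windows, 67.3% began no more than 50 bases before the transcript start or after it, against 27.3% of CHR matches in all windows. These shares describe the list and say nothing about EC359. Among members, the 35 with a CHR match had a median log2 fold change of -0.079 and the 10 without one -0.037, with 27 and 6 lower. The 35 with a CCAAT box had a median of -0.086, and the 10 without one had -0.010. CDK1, the member called higher, was among the 5 with an E2F site, whose median was -0.0058 and of which 3 lay lower. The 40 without an E2F site had a median of -0.077, with 30 lower. With so few genes on one side these medians are a description only. Windows for the other 11 members were not used here.

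**Figure D4:**
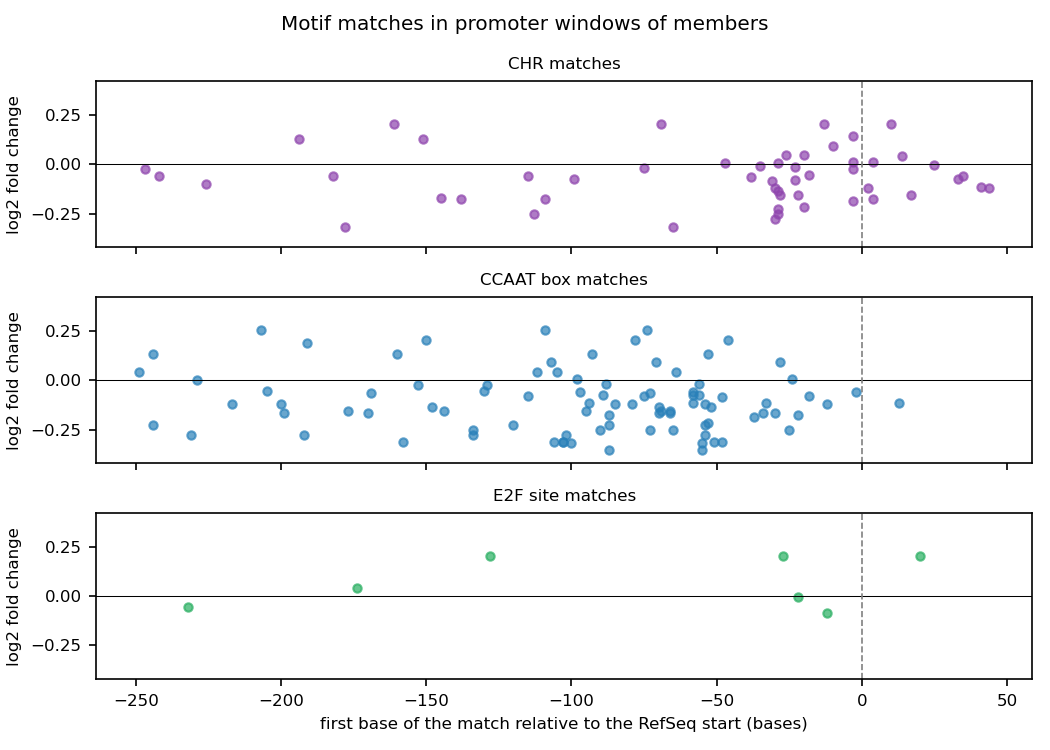
Motif matches in the promoter windows of members, by the position of the first base of the match relative to the RefSeq transcript start (x axis, bases) and the log2 fold change of the gene with EC359 (y axis), in a panel each for the CHR, the CCAAT box and the E2F site. Each point is a match, so genes with several windows or matches appear more often. Of the 52 CHR points, 67.3% lie from 50 bases before the start on.

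Other genes of the same pathways came from lists that were not part of the 56. In the anaphase-promoting complex itself, the 14 tested subunits and inhibitors had a median log2 change of -0.026. Of these, 9 were lower (64.3%, against 49% of all tested genes) and 5 higher. Its inhibitor FBXO5, or EMI1, had 2641 and 2577 normalized counts in the vehicle libraries and 3164 and 3027 in the EC359 libraries (log2 fold change 0.25 with an SE of 0.043, adjusted p = 0.0132). ANAPC11, the RING subunit, was at -0.21 (adjusted p = 0.103) and the small subunit CDC26 at -0.52 (adjusted p = 0.17) on the log2 scale. FBXO5 lay higher in both EC359 libraries, opposite to CDC20.

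The 15 genes of cohesin and its regulators had a median of 0.056, with 11 higher (73.3%, against 51% of all tested genes) and 4 lower. ESCO2, which acetylates cohesin in S phase, had 1211 and 1077 normalized counts in the vehicle libraries and 1424 and 1402 in the EC359 libraries (log2 fold change 0.30 with an SE of 0.065, adjusted p = 0.0289). SGOL2, a shugoshin, which protects centromeric cohesin, had 3119.8 and 3052 normalized counts in the vehicle libraries and 2733 and 2674 in the EC359 libraries (log2 fold change -0.19 with an SE of 0.041, adjusted p = 0.0297). These lay in opposite directions. SMC1A, a core subunit, was at 0.12 on the log2 scale (adjusted p = 0.0601).

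The 29 other kinetochore and checkpoint genes lay mostly higher, with a median log2 fold change of 0.086. There were 24 higher (82.8%, against 51% of all tested genes) and 5 lower. Both EC359 libraries lay above both vehicle libraries in 16 of them, which is 55.2% against 26.1% of all tested genes, and 10 had an unadjusted p under 0.05 in that direction (34.5%, against 10.7%). DSN1 of the MIS12 complex had 1935 and 1883 normalized counts in the vehicle libraries and 2378 and 2206 in the EC359 libraries (log2 fold change 0.26 with an SE of 0.052, adjusted p = 0.0203), and ZWINT, which links the dynein adaptors to the kinetochore, had 7108 and 6922 normalized counts in the vehicle libraries and 8012 and 7838 in the EC359 libraries (log2 fold change 0.18 with an SE of 0.034, adjusted p = 0.0193). MLF1IP, also called CENPU, was at 0.16 (adjusted p = 0.0559). Of the 3 genes of condensin II, NCAPH2 was at 0.18 (adjusted p = 0.108), NCAPD3 at 0.013 and NCAPG2 at -0.037 on the log2 scale.

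The 13 regulators of G2/M transcription, the DREAM, MuvB and NF-Y subunits and B-MYB, had a median of -0.0047. RBL1, the pocket protein p107, had 2119.5 and 2174 normalized counts in the vehicle libraries and 2585 and 2545 in the EC359 libraries (log2 fold change 0.26 with an SE of 0.044, adjusted p = 0.0118). MYBL2, or B-MYB, had 1693 and 1711 normalized counts in the vehicle libraries and 1978 and 2100.0 in the EC359 libraries (log2 fold change 0.26 with an SE of 0.051, adjusted p = 0.0203). Both lay higher in both EC359 libraries and passed 0.05 but not 0.01. RBL2, the pocket protein p130, lay the other way at -0.13 (adjusted p = 0.0803). The 18 tested genes of G2 arrest and mitotic exit had a median of 0.073, and their lowest adjusted p was 0.0676, for ENSA, an inhibitor of a mitotic phosphatase (log2 fold change -0.13). GADD45A, a gene induced by DNA damage, was at 0.20 (adjusted p = 0.0714), and MASTL, the kinase that activates ENSA, at 0.18 (adjusted p = 0.101).

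Kinesins of mitosis and genes of DNA replication and S-phase entry were set beside the members as the nearest other gene groups, from the same 4 libraries. Among 13 kinesins the median log2 fold change was -0.035, with 8 lower (61.5%, against 49% of all tested genes) and 5 higher. One motor of the central spindle, KIF20A, fell (log2 fold change -0.40, adjusted p = 0.0016). KIF20A was the 1 kinesin called lower (7.69%, against 0.795% of all tested genes). KIF2C, which depolymerizes microtubules, was at -0.15 (adjusted p = 0.0364) and KIF11, the motor that separates the poles, at 0.11 (adjusted p = 0.116). The 37 replication genes had a median of 0.13, with 33 higher (89.2%, against 51% of all tested genes) and 4 lower. Of these, 28 lay higher in both EC359 libraries (75.7%, against 26.1% of all tested genes). At an adjusted p under 0.05, 9 were higher (24.3%, against 1.68%), and at an adjusted p under 0.01, 2 were (5.41%, against 0.299%). TYMS, thymidylate synthase, had 12357 and 12163 normalized counts in the vehicle libraries and 14754 and 14366 in the EC359 libraries and rose (log2 fold change 0.25 with an SE of 0.031, adjusted p = 0.00327). GINS1, a subunit of the replicative helicase, had 2921 and 2981 normalized counts in the vehicle libraries and 3469 and 3507 in the EC359 libraries and rose (log2 fold change 0.24 with an SE of 0.039, adjusted p = 0.00929), and PCNA, the sliding clamp, was at 0.19 (adjusted p = 0.0121). No difference between these lists and the members was tested. In the RefSeq windows of the replication genes, the CHR was in 4.65%, the CCAAT box in 60.5% and the E2F site in 46.5%. Over all windows these shares were 16.4%, 34.6% and 6.89%. Windows of the kinesins held them in 78.6%, 71.4% and 14.3%. For the other kinetochore and checkpoint genes, which lay mostly higher, the shares were 40%, 60% and 20%. A link between motifs and direction was not tested.

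**Figure D5:**
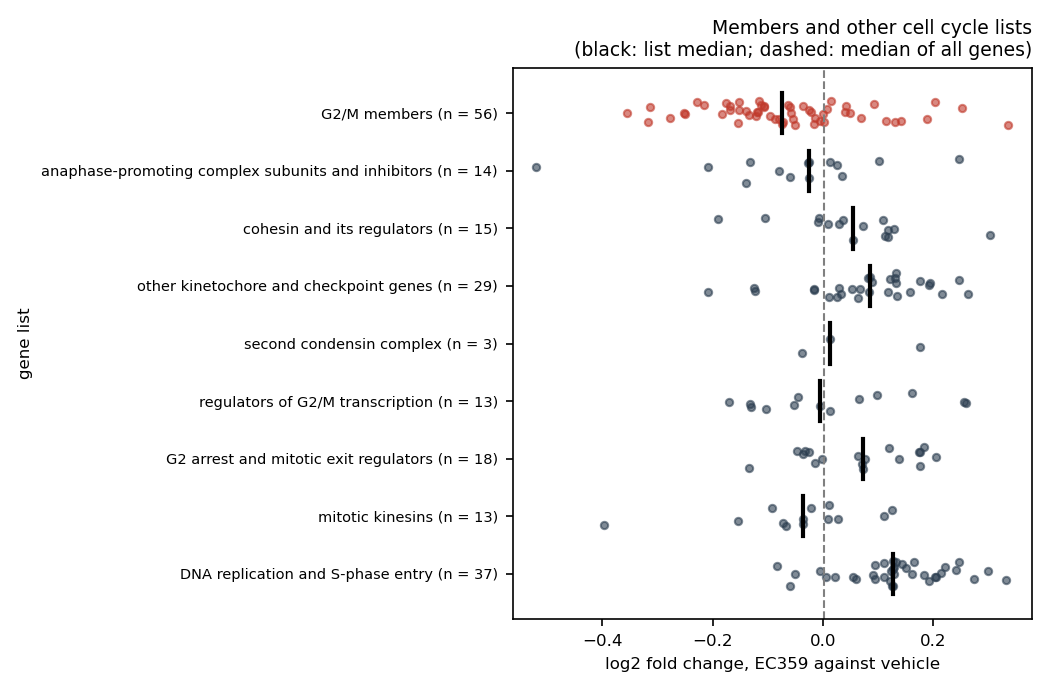
Log2 fold change of EC359 against vehicle (x axis) for each gene of the members and of the 8 other gene lists (y axis). Points are genes from the fit over 2 libraries per treatment, black bars are list medians and the dashed line is the median of all tested genes. The members' median lies at -0.074 and that of the replication genes at 0.13.

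The libraries held 25572494 to 31707553 counts on genes, and the smallest count of any member in any library was 358. Replicates varied with a common biological coefficient of variation of 3.5%. Of the markers for the line, KRT7, KRT18, VIM and FN1 were abundant, whereas EPCAM, CDH1 and MSLN had at most 3 counts in a library and MUC16 had 0. PAX8, a lineage factor of many ovarian carcinomas, was low at 26.7 to 38.3 normalized counts. Of the mesenchymal markers, VIM was at -0.17 on the log2 scale (adjusted p = 0.0135), CDH2 at 0.035 and FN1 at -0.0065. Of the leukocyte markers, CD68 had 2552 and 2717 normalized counts in the vehicle libraries and 2577 and 2527 in the EC359 libraries, PTPRC and CD14 had at most 3 counts in a library and CD3E had 0. The 4 endothelial markers summed to 3503 to 3733 normalized counts, mostly CDH5, with PECAM1 and VWF at no more than 3 counts. Their part in the results was not tested. Over the members, the log2 fold change had a Pearson correlation of 0.081 with GC content and 0.20 with log2 transcript length across 56 genes, which share the same libraries. The exons of 13 members overlap an exon of another gene in the files on the opposite strand, among them CCNA2, CDC25C, PKMYT1, FOXM1, CDCA3, SPC24, PLK1, RACGAP1, NCAPD2 and SMC4.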

How the data were processed

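RNA from ES2 cells was measured in 2 libraries for each treatment. Per the labels and the study's methods, mRNA libraries were sequenced as 50-base single-end reads, aligned to UCSC hg19 with TopHat2 2.0.8b and counted with HTSeq, after CASAVA 1.8.2. The authors deposited unnormalized read counts, 1 value for each gene symbol. Summary rows that name no gene (5 per file) were left out. Reads on no gene were 10.95% to 12.05% of the uniquely aligned reads, and ambiguous reads 0.852% to 0.879%.

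Low counts were removed with filterByExpr (minimum count 10, minimum total 15) of edgeR 4.0.16 in R 4.3.3, scaled with TMM factors and tested with the quasi-likelihood test without a replicate block, called at an adjusted p under 0.01. Replicates differed by more than sampling noise (chi-square per degree of freedom 3.81 for vehicle and 2.72 for EC359). Members and lists were chosen with earlier results of these data known. Named genes are called members, the 3 of each role with the lowest p, paralog pairs, and the 3 lowest-p genes of each other list. Places and lengths came from GENCODE v44 on GRCh37 (81.5% of symbols matched), and promoters from RefSeq on GRCh38.p14. The fit was tried on counts simulated with the dispersion estimated from these libraries. These counts held no link between same-numbered libraries, so the trial cannot speak to such a link. Alternatives were other factors, DESeq2 1.42.0, edgeR's exact test, limma 3.58.1 (voom), other filters and thresholds, removal of GC or length trends, a replicate block and leaving out each library. A planned comparison of paralog proteins was not run. Some marker genes are not reported here.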

Additional observations from a re-analysis of the deposited data

How the results depend on the processing

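The 5 member calls (1 higher, 4 lower) became 4 to 7 under RLE, upper-quartile and total-count scaling, limma voom, a minimum of 10 counts in every library and removal of the length trend, and 3 (all lower) without a filter. DESeq2 called 9 members (54 had an adjusted p) and 236 of all genes, and edgeR's exact test 10 and 561. Removal of each library's GC trend gave 22 and 971, and an adjusted p under 0.05 gave 10 and 549. The quasi-likelihood fit behind the 5 member calls called 139 of all genes. Leaving out 1 library gave from 0 to 19 called members by edgeR's quasi-likelihood test, with 0 when either EC359 replicate was left out. The members' median log2 fold change was then -0.068 without EC359 replicate 1 and -0.060 without EC359 replicate 2. The cause of the lost calls was not tested. A term for the replicate number (replicate block) gave 27 called members (5 higher, 22 lower) and 1539 called genes, and 33 and 1898 with the GC trend removed as well. The labels do not say that a number marks a shared batch. Deviations of same-numbered libraries correlated at 0.103 over all tested genes and 0.666 over the members with only 2 pairs. Whether same-numbered libraries were paired was not tested, and the 5 member calls come from the fit without a replicate block.

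CCNB1, CDC20 and PTTG1 were called in 12 of 12 alternatives fitted to all 4 libraries, CDK1 in 11 and ASPM in 10. CDK1 was lost without a filter (adjusted p = 0.0138), and ASPM without a filter (0.0171) and with total counts (0.0105). The members' median log2 fold change ranged from -0.082 to -0.050, with 36 members lower with total counts, where the median of all tested genes was 0.027. Over 10 alternatives compared gene by gene, 12 members turned sign at least in 1: BUB1B, MAD2L1, FZR1, UBE2S, NDC80, SPC25, CENPA, CENPE, AURKB, MKI67, NCAPG and SMC4. BUB1B was at 0.0092 and SMC4 at 0.0086 with total counts, and over the left-out libraries BUB1B ranged from -0.035 to 0.0047 and SMC4 from -0.070 to 0.036. AURKB was at 0.012 with the GC trend removed, with or without the block, and at 0.012 with the length trend removed. Every member had at least 358 counts in each library.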
